A study of Mus musculus with 8 samples.

Results

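The p53 target genes described here were 10 genes of the p53 response: *Cdkn1a*, *Mdm2*, *Ccng1*, *Trp53inp1*, *Bax*, *Bbc3*, *Perp*, *Sesn2*, *Zmat3* and *Phlda3*. They were chosen by name with earlier results of these data known, as were the lists below. Their counts beside all genes are therefore a description. A probe belonged to a gene when its RefSeq accession mapped to that symbol. All 10 had a probe, 12 probes in total, out of 19751 genes named on the array. The cells were VV3 ESCs, a male mouse line with a *Vasa*::Venus reporter transgene, cultured in serum and LIF over STO fibroblasts that mitomycin C had inactivated, and their RNA was hybridised to Agilent arrays in one colour. In the *L3mbtl2*-KD group (4 samples) cells received an siRNA that targets *L3mbtl2* (Lipofectamine RNAiMAX), and the methods name purification of *Vasa*-positive cells by FACS. In the control group (4 samples) the same line received the non-silencing AllStars siRNA, and whether these cells were sorted for the arrays is not stated. The labels call the 4 samples of a group biological replicates, and each had its own array. Slide 1 held replicates 1 and 2 of both groups and slide 2 replicates 3 and 4, with control arrays at positions 1 and 3 and *L3mbtl2*-KD arrays at positions 2 and 4, so that position and group cannot be told apart. Values are log2 intensities relative to the 75th percentile of intensity of the array, so that 0 is the level of that percentile, which lay between 790.6 and 1037.9. Between 59.5 and 66.6% of the spots of an array were well above background, and all 12 probes of the 10 genes were so on all 8 arrays. The number of arrays limits the precision.

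p53 is a transcription factor that is stabilised by DNA damage and other stress and then switches on genes for cell cycle arrest, DNA repair, altered metabolism and apoptosis. One of its targets, *Mdm2*, encodes the ubiquitin ligase that marks p53 for destruction, which closes a feedback loop. ESCs hold p53 protein at a high level and lack a firm G1 checkpoint.

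The siRNA target was measured first. *L3mbtl2*, which encodes an MBT-domain subunit of a non-canonical Polycomb complex, was at 0.27, -0.18, -0.21 and -0.31 in control replicates 1 to 4 and at -1.45, -1.26, -1.58 and -1.73 in *L3mbtl2*-KD replicates 1 to 4. Every *L3mbtl2*-KD array was below every control array, with 37.9% of the control level left (log2 fold change -1.40, standard error 0.15, adjusted p = 0.000944 in limma). *Ddx4*, the gene whose reporter was used for sorting, was 2.83 higher on the log2 scale (standard error 0.09, adjusted p = 4.87e-06 in limma). The methods name sorting of the *L3mbtl2*-KD cells by this reporter. A higher *Ddx4* level was thus selected for, and its p is no independent test. Among the genes singled out here, 29 that were well above background in both groups and passed the threshold were examined by slide, *L3mbtl2* and *Ddx4* included. They were selected by that call on the same arrays, so their values by slide are a description and no further test: in all 29 the difference had the same sign on each slide, and the adjusted p was under 0.05 with the slide as a block.

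Of the 10 p53 target genes, 2 were lowered in *L3mbtl2*-KD ESCs at an adjusted p under 0.05 and 0 were raised. *Perp* and *Bbc3* were the lowered genes. Over all 13652 genes tested by the same rule in limma, 11.7% were lowered and 10.3% were raised. A block for the replicate number, set out below, lowered 5 of the 10 (*Mdm2*, *Sesn2* and *Phlda3* too) and raised 0. That block lowered 26.0% and raised 23.9% of all genes. At an unadjusted p under 0.05, 3 of the 10 were lowered and 0 were raised in limma, against 20.5% and 18.2% of all genes, and the methods' one-way analysis of variance also gave 3 and 0. After adjustment that analysis lowered 1 (*Perp*) and raised 0. No share of all genes is given for that analysis. Its counts, here and for the lists below, have none of the same form beside them. None of the 10 changed more than 2-fold at that adjusted p, as 5.70% of all genes did. The median log2 fold change of the 10 genes was -0.24, beside -0.01 over all genes tested, and 9 of the 10 estimates were below 0, beside 51.6% of all genes. Over the other normalizations, fits and left-out arrays, 8 to 10 of the 10 estimates were below 0 (10 with quantile normalization, on slide 2 alone and without control replicate 1 or *L3mbtl2*-KD replicate 2, and 8 without *L3mbtl2*-KD replicate 1 or control replicate 4).

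**Figure D1:**
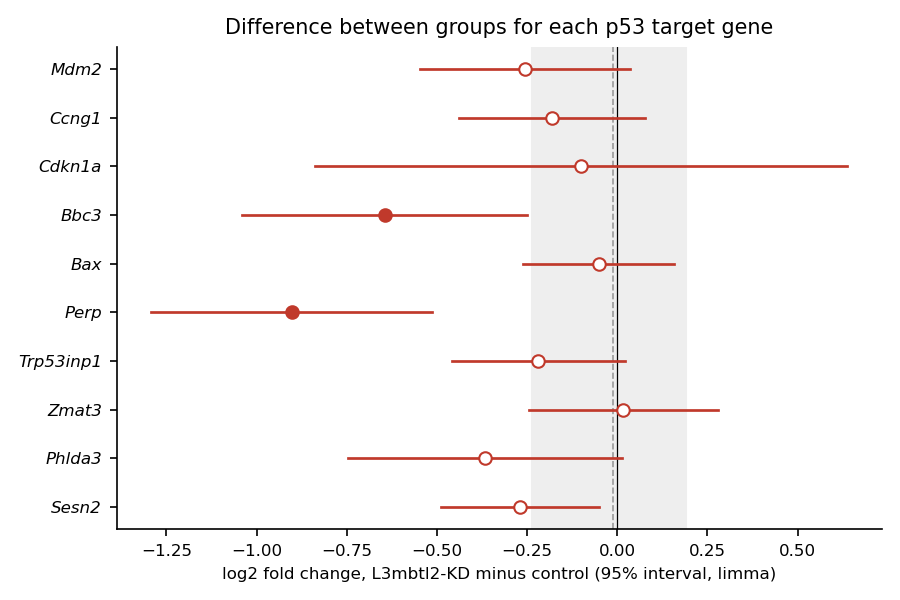
Log2 fold change of each p53 target gene (*L3mbtl2*-KD minus control, 4 arrays each; circles) with its 95% interval from limma (lines). *Perp* at -0.90 and *Bbc3* at -0.64 are filled (adjusted p under 0.05) and lie below the grey band, the quartiles of all 13652 genes tested (-0.24 to 0.19, dashed line at their median).

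The feedback genes came first in the order of roles. *Mdm2* was at 3.66, 4.09, 3.61 and 3.82 in control replicates 1 to 4 and at 3.51, 3.75, 3.46 and 3.44 in *L3mbtl2*-KD replicates 1 to 4. All *L3mbtl2*-KD arrays but replicate 2 were below all control arrays, and replicate 2 was the highest in each group. This made a log2 fold change of -0.26 (95% interval -0.55 to 0.04, adjusted p = 0.2 in limma). *Ccng1*, which encodes cyclin G1, a partner of a phosphatase that acts on MDM2, ranged from 0.51 to 0.65 with *L3mbtl2* siRNA and from 0.55 to 0.96 with control siRNA. Its estimate was a log2 fold change of -0.18 (95% interval -0.44 to 0.08, adjusted p = 0.303). In both genes the *L3mbtl2*-KD array was below the control array of the same replicate number in 4 of 4 pairs. Counts of such pairs, here and below, have no share of all genes beside them.

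*Cdkn1a* encodes p21, the inhibitor of cyclin-dependent kinases through which p53 stops the cell cycle. Its brighter probe (NM_007669) was at -0.39, 0.70, 0.37 and 0.99 in control replicates 1 to 4 and at -0.34, 0.36, 0.49 and 0.76 in *L3mbtl2*-KD replicates 1 to 4. The groups overlapped throughout, with replicate 1 lowest and replicate 4 highest in both of them. The spread inside a group (SD 0.47 in *L3mbtl2*-KD and 0.59 in control, n = 4 each) was the widest among the 10 genes. The log2 fold change was -0.10, with a 95% interval from -0.84 to 0.64 (adjusted p = 0.863 in limma), so that a change of 1.5-fold in either direction lay inside the interval. Without *L3mbtl2*-KD replicate 1 the estimate was 0.12, and without control replicate 4 it was 0.09. A second probe (NM_001111099) gave -0.34 (95% interval -1.05 to 0.36, adjusted p = 0.484), again with overlapping groups. Of 4 same-number pairs, 2 were lower and 2 higher with the brighter probe, and 3 were lower with the second.

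**Figure D2:**
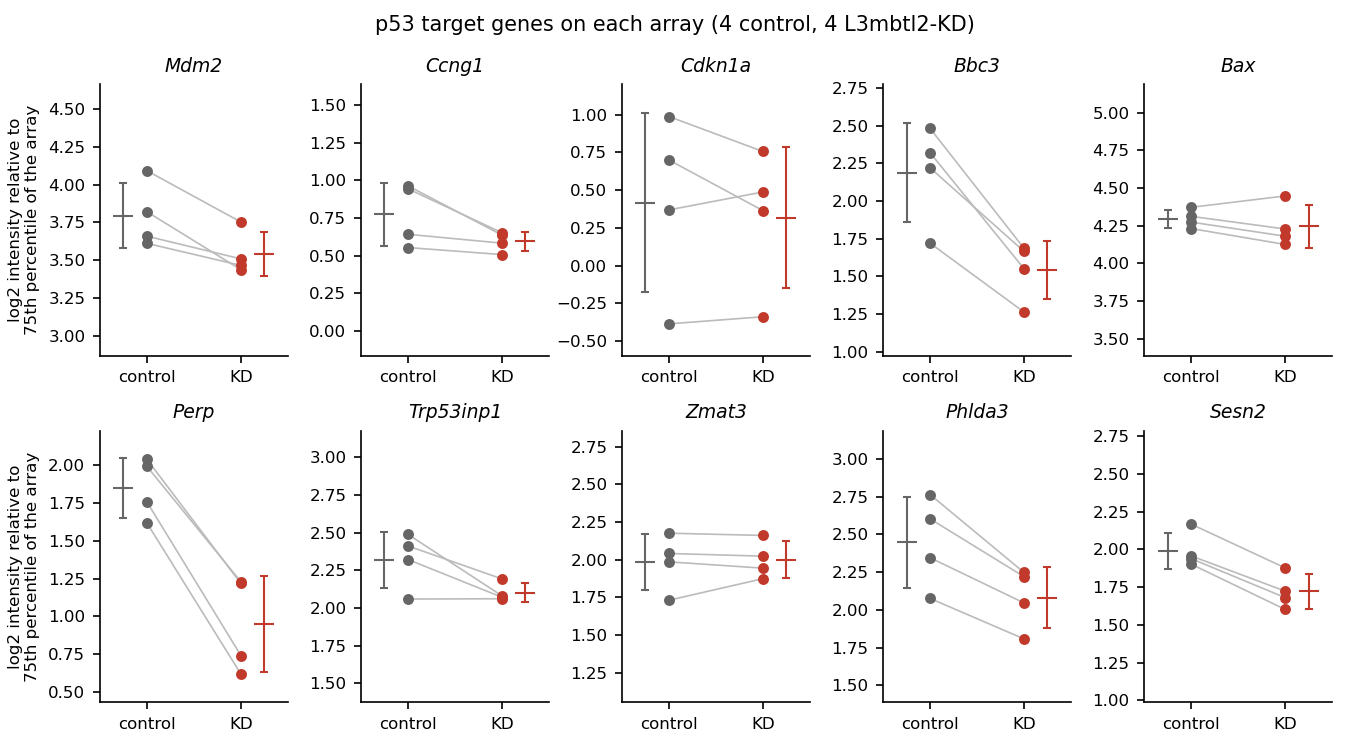
Log2 intensity relative to the 75th percentile of the array for each p53 target gene (1 probe per gene) on the 4 control arrays (grey) and the 4 *L3mbtl2*-KD arrays (red). Points are arrays, grey lines join the same replicate number and bars show mean and SD, with the groups apart for *Bbc3*, *Perp* and *Sesn2* and control arrays from -0.39 to 0.99 for *Cdkn1a*.

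The promoter windows of *Cdkn1a* and *Mdm2* are shown because p53 is known to act at these genes. Sequences are from RefSeq (GRCm38.p6), cover the 250 bases before a listed start site, and read 5′ to 3′ on the strand of the gene. Of the 10 genes, 7 matched an entry (10 windows in all). *Perp*, *Trp53inp1* and *Zmat3* had none. The p53 half-site (a motif of 10 bases that reads the same on both strands) was searched, with pairs of half-sites at most 13 bases apart. The E-box CACGTG, bound by MAX and its partners, and the E2F motif GCGGGAA were searched on both strands. No match of one motif overlapped a match of another. Capitals mark these matches. The *Cdkn1a* window of start site 1 lies at chr17:29090729-29090978 (plus strand) and the *Mdm2* window at chr10:117710759-117711008 (minus strand).
Cdkn1a: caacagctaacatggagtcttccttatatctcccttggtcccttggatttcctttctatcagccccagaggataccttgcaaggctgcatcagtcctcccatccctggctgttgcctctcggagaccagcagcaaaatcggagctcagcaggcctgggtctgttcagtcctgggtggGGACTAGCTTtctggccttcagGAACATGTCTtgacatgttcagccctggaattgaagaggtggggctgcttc
Mdm2: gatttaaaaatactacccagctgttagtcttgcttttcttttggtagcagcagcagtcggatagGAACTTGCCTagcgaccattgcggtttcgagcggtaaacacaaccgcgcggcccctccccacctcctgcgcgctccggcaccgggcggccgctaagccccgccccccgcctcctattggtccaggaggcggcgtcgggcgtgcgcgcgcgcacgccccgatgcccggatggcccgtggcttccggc
The *Cdkn1a* window held half-sites beginning 73 and 51 bases before the start, which form a pair (the window of its start site 2 held no match of any motif), and the *Mdm2* window held 1, beginning 186 bases before the start. Half-sites were found in windows of 4 of the 7 genes, *Ccng1* and *Bax* being the other two. In all 32851 windows of this length, 7.13% held a half-site, 0.0639% a pair, 6.02% CACGTG and 3.82% GCGGGAA. These shares are per window, whereas the count above is per gene, and a gene can have several windows. A match describes these letters and does not show binding.

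Among the genes of apoptosis, *Bbc3* and *Perp* fell. *Bbc3* encodes PUMA, a BH3-only protein that releases BAX and BAK from their inhibitors at mitochondria. It was at 1.72, 2.32, 2.22 and 2.48 in control replicates 1 to 4 and at 1.26, 1.55, 1.67 and 1.69 in *L3mbtl2*-KD replicates 1 to 4. All *L3mbtl2*-KD arrays were below all control arrays, although control replicate 1 lay only just above the highest of them. The level in *L3mbtl2*-KD ESCs was 64.0% of that in control ESCs (log2 fold change -0.64, standard error 0.17, adjusted p = 0.0348 in limma), lower in 4 of 4 same-number pairs. It was -0.61 on slide 1 and -0.67 on slide 2 (adjusted p = 0.018 with the slide as a block). The call rested on the full set of arrays. It was lost without any single *L3mbtl2*-KD replicate and without control replicate 2, 3 or 4 (adjusted p from 0.0593 to 0.0882), whereas without control replicate 1 the adjusted p was 0.00772.

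*Perp*, which encodes a tetraspan membrane protein of the PMP22 family that takes part in apoptosis and in cell adhesion at desmosomes, changed most. It was at 1.62, 1.99, 2.04 and 1.76 in control replicates 1 to 4 and at 0.62, 1.23, 1.22 and 0.74 in *L3mbtl2*-KD replicates 1 to 4. No array of one group reached the range of the other, and in both groups replicates 1 and 4 were the low ones. The level fell to 53.5% of control (log2 fold change -0.90, standard error 0.17, adjusted p = 0.00932 in limma), lower in 4 of 4 same-number pairs. Slide 1 gave -0.88 and slide 2 gave -0.92 (adjusted p = 0.0113 with the slide as a block). With each array left out in turn it stayed between -0.99 and -0.79 and passed the threshold each time. Among the 13652 genes tested, the estimate of *Perp* lay at the 4.3 percentile and that of *Bbc3* at the 8.2 percentile, counted from the lowest.

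*Bax*, which encodes the pore-forming effector of mitochondrial apoptosis, was at 4.37, 4.31, 4.23 and 4.27 in control replicates 1 to 4 and at 4.45, 4.23, 4.13 and 4.18 in *L3mbtl2*-KD replicates 1 to 4. The ranges overlapped, and replicate 1 was the highest in both groups. The log2 fold change was -0.05, with a 95% interval from -0.26 to 0.16 (adjusted p = 0.741), which leaves out a change as large as that of *Bbc3*. *Trp53inp1*, which encodes a stress-induced protein that favours apoptosis and autophagy, ranged from 2.06 to 2.19 with *L3mbtl2* siRNA and from 2.06 to 2.49 with control siRNA. The log2 fold change was -0.22 (95% interval -0.46 to 0.02, adjusted p = 0.185), and a second probe gave -0.15 (adjusted p = 0.695). Control replicate 1 lay at the level of the *L3mbtl2*-KD arrays, and without it the first probe gave -0.31 with an adjusted p of 0.0462.

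The windows of *Bax* and *Bbc3* are printed because these mitochondrial death genes differed in their estimates. RefSeq lists 3 *Bbc3* windows, of which that of start site 1 (chr7:16309333-16309582, plus strand) and that of start site 3 (chr7:16310181-16310430, plus strand) are given with that of *Bax* (chr7:45466899-45467148, minus strand).
Bax: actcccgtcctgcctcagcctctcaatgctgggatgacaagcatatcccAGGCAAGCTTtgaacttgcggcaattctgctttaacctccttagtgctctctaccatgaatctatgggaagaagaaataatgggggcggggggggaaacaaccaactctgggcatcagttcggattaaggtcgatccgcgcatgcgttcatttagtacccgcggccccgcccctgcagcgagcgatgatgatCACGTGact
Bbc3 site 1: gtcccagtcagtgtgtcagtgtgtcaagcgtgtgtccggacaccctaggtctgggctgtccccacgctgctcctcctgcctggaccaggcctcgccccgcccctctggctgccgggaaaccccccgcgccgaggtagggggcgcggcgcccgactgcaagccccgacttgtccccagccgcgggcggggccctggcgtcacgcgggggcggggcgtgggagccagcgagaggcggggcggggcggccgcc
Bbc3 site 3: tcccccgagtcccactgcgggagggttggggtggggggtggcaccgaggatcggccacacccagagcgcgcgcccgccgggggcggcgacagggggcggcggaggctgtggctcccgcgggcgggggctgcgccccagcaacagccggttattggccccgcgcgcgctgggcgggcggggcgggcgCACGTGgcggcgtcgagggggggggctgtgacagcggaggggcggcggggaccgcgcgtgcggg
Capitals mark a half-site (201 bases before the start) and CACGTG (9 bases before it) in *Bax*, and CACGTG (64 bases before the start) in the *Bbc3* window of start site 3. That of start site 2 held GCGGGAA 238 bases before its start, and that of start site 1 held no match. *Sesn2* and *Phlda3* held no match of any of these motifs in their windows. G and C made up 54.0% of the *Bax* window and from 72.4 to 81.6% of the *Bbc3* windows.

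*Sesn2* encodes sestrin 2, which restrains mTORC1 and answers to amino acid shortage as well as to p53. It was at 2.17, 1.90, 1.96 and 1.94 in control replicates 1 to 4 and at 1.88, 1.60, 1.72 and 1.68 in *L3mbtl2*-KD replicates 1 to 4. All control arrays were above all *L3mbtl2*-KD arrays, by a small margin. The log2 fold change was -0.27 (95% interval -0.49 to -0.05), which did not pass the adjusted threshold (adjusted p = 0.0854 in limma). Together with *Perp* and *Bbc3*, this made 3 of 10 genes whose *L3mbtl2*-KD arrays were all below the control arrays and 0 of 10 whose arrays were all above. Over all genes tested these shares were 13.8% and 12.7%. A two-sided exact permutation test of such a gene gives p = 0.0286, the smallest that 4 against 4 arrays allow, before any adjustment.

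*Phlda3* and *Zmat3* are p53 targets with other tasks. *Phlda3* encodes a small PH-domain protein that keeps AKT from the membrane. It was at 2.08, 2.77, 2.35 and 2.60 in control replicates 1 to 4 and at 1.81, 2.25, 2.05 and 2.22 in *L3mbtl2*-KD replicates 1 to 4. The groups overlapped because of control replicate 1, and replicate 1 was the lowest of both groups. In limma *Phlda3* had a log2 fold change of -0.37 (95% interval -0.75 to 0.01, adjusted p = 0.161). *Zmat3*, which encodes an RNA-binding zinc finger protein that acts on splicing, ranged from 1.87 to 2.16 with *L3mbtl2* siRNA and from 1.73 to 2.18 with control siRNA. The log2 fold change was 0.02, with a 95% interval from -0.24 to 0.28 (adjusted p = 0.935), and its sign turned with quantile normalization (-0.01), on slide 2 alone (-0.03) and without control replicate 1 (-0.07) or *L3mbtl2*-KD replicate 2 (-0.04).

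Since arrays of the same replicate number resembled each other, the differences inside each same-number pair were also taken. The *Sesn2* differences were -0.29, -0.30, -0.23 and -0.26 in replicates 1 to 4. Those of *Phlda3* were -0.27, -0.52, -0.30 and -0.38, and those of *Mdm2* were -0.15, -0.34, -0.15 and -0.38. All pairs of these 3 genes pointed to a lower level in *L3mbtl2*-KD ESCs. The share of all genes with every pair lower was not counted. With the replicate block in limma, their adjusted p was 0.00776 for *Sesn2*, 0.00883 for *Phlda3* and 0.0288 for *Mdm2*, so that 5 of the 10 genes were lowered and 0 raised. The same block raised the share of all genes lowered to 26.0% and of those raised to 23.9%. The differences of *Cdkn1a* were 0.05, -0.34, 0.12 and -0.23 in replicates 1 to 4, with a blocked adjusted p of 0.425. *Ccng1* (0.0958), *Trp53inp1* (0.0751), *Bax* (0.451) and *Zmat3* (0.806) did not pass with the block either.

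**Figure D3:**
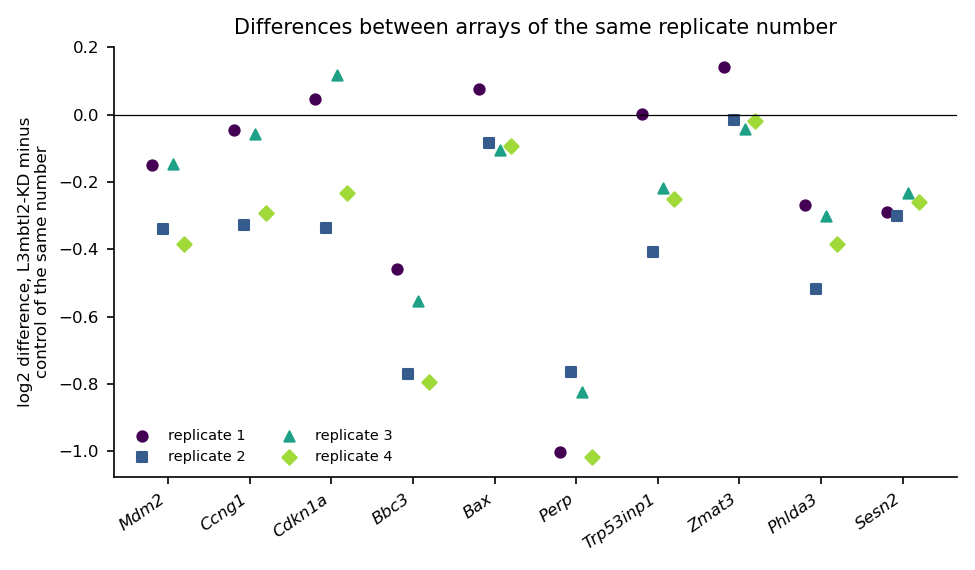
Log2 difference between the *L3mbtl2*-KD array and the control array of the same replicate number for each p53 target gene (1 probe per gene, 1 marker shape per replicate number, line at no difference). All 4 markers are below 0 for *Mdm2*, *Ccng1*, *Bbc3*, *Perp*, *Phlda3* and *Sesn2*, with *Perp* between -1.02 and -0.77. How many of all genes have all markers below 0 was not counted.

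A wider list of 48 other p53 targets was examined in the same fit. Of these, 46 had a probe and 43 were tested. 1 was lowered (*Trp53i11*) and 1 was raised (*Gpx1*) at an adjusted p under 0.05, beside the 11.7% and 10.3% of all genes. Their median log2 fold change was -0.03, with 24 of 43 estimates below 0. *Trp53i11*, a p53-inducible gene, fell to 52.0% of control (log2 fold change -0.94, standard error 0.13, adjusted p = 0.0026 in limma), and its second probe gave 49.9% of control. *Gpx1*, which encodes a glutathione peroxidase, was 0.25 higher (adjusted p = 0.0427), a call that was lost without any 1 of the 8 arrays (adjusted p from 0.0547 to 0.104) and without the filter (0.109). With the replicate block, 15 of the 43 were lowered and 8 raised, beside 26.0% and 23.9% of all genes with that block.

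The counts by role are read beside all genes tested, of which limma lowered 11.7% and raised 10.3%. At an unadjusted p under 0.05 these shares were 20.5% and 18.2%. By role, the other arrest and feedback targets had 0 of 12 tested genes past the threshold in limma, with a median of 0.05. At an unadjusted p under 0.05, 1 was raised and 1 lowered, and the methods' one-way analysis of variance called 0 after adjustment. Estimates ran from -0.64 to 0.62. The apoptosis targets had 1 of 11 lowered (1 raised and 2 lowered at an unadjusted p under 0.05). Their median was -0.01, with estimates from -0.94 to 0.88. *Fas* and *Dram1* were not well above background on any *L3mbtl2*-KD array and were so on 2 control arrays each, and *Eda2r* was so on 3 arrays of each group, so these genes were not tested. The metabolism targets had 1 of 12 raised (2 raised and 0 lowered at an unadjusted p under 0.05). Of their estimates, 10 of 12 were below 0, beside 51.6% of all genes (median -0.18). The DNA repair targets had 0 of 8 past the threshold in limma (1 raised and 1 lowered at an unadjusted p under 0.05), with a median of -0.01. The methods' one-way analysis of variance raised 1 of the 8 after adjustment, with no share of all genes given for that analysis. With the replicate block, 4 arrest and feedback targets were lowered and 3 raised, 4 apoptosis targets were lowered and 1 raised, 5 metabolism targets were lowered and 2 raised, and 2 repair targets were lowered and 2 raised, where 26.0% of all genes were lowered and 23.9% raised.

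**Figure D4:**
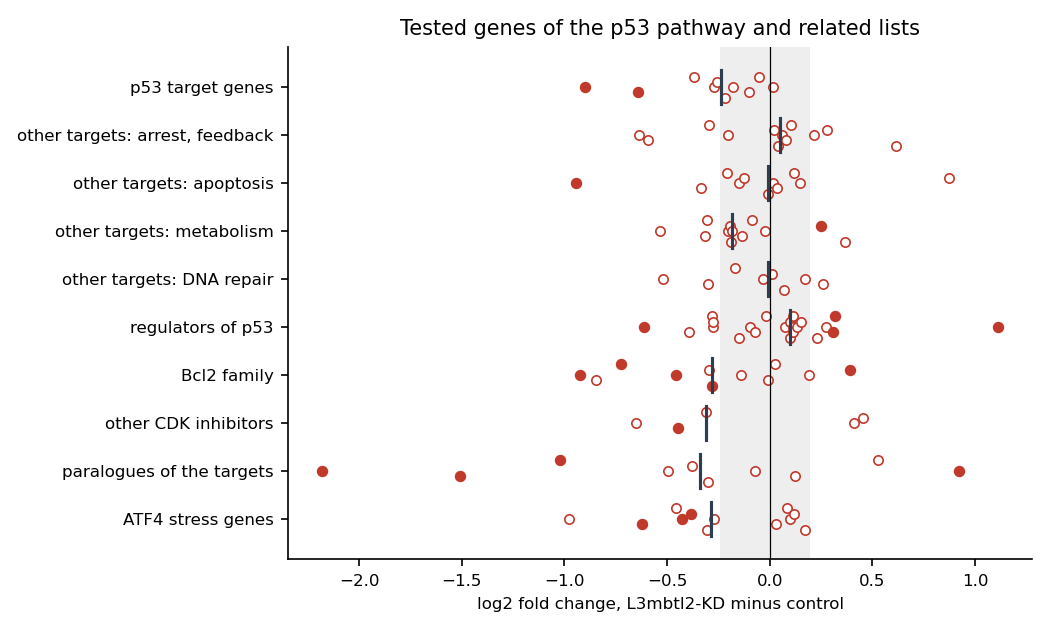
Log2 fold change (*L3mbtl2*-KD minus control) of the tested genes in each list, 1 probe per gene, for the p53 target genes and related lists. Filled circles mark an adjusted p under 0.05 of that probe in limma, vertical bars are list medians (from -0.34 for the paralogues to 0.10 for the regulators among lists of the pathway) and the grey band spans the quartiles of all genes tested (-0.24 to 0.19).

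Upstream of the targets, *Trp53* itself, which encodes p53, was at 0.16, 0.11, 0.18 and 0.22 in control replicates 1 to 4 and at 0.20, -0.11, 0.26 and 0.61 in *L3mbtl2*-KD replicates 1 to 4. The *L3mbtl2*-KD arrays spread to both sides of the control arrays. In limma *Trp53* had a log2 fold change of 0.07 (95% interval -0.25 to 0.40, adjusted p = 0.76). *Mdm4*, which encodes the partner of MDM2 that masks the p53 activation domain, gave -0.40 (95% interval -0.69 to -0.10, adjusted p = 0.0659) with its brighter probe and -0.11 (adjusted p = 0.765) with the other. The brighter probe passed with the replicate block (adjusted p = 0.0202), with normexp (0.039), with the slide as a block (0.05 after rounding) and without *L3mbtl2*-KD replicate 2 (0.0265). It did not pass in the other settings, where the adjusted p was 0.0549 or more. Of 22 regulators tested, 3 were raised and 1 was lowered in limma (10.3% and 11.7% of all genes), with a median of 0.10. At an unadjusted p under 0.05 there were 3 raised and 4 lowered (18.2% and 20.5% of all genes). With the replicate block there were 4 raised and 5 lowered (23.9% and 26.0% of all genes). Which of the counts was larger depended on the setting. *Trp63*, which encodes the p53 relative p63, rose 2.16-fold (log2 fold change 1.11, standard error 0.23, adjusted p = 0.0129), while a second probe for another transcript was not well above background on any array. *Kat5*, which encodes the acetyltransferase TIP60, fell to 65.4% of control (log2 fold change -0.61, adjusted p = 0.00159). *Atr* (0.31, adjusted p = 0.0304), which encodes a kinase that answers to stalled replication, and *Ppp1r13b* (0.32, adjusted p = 0.0431), which encodes the p53 cofactor ASPP1, were raised, and both calls were lost in 7 of 8 settings with 1 array left out. *Atr* kept its call without *L3mbtl2*-KD replicate 2 and *Ppp1r13b* without control replicate 2. The highest adjusted p was 0.0864 for *Atr* and 0.121 for *Ppp1r13b*. Both were also lost without the filter (0.0805 and 0.104), and *Ppp1r13b* with normexp (0.0548).

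Proteins of the BCL2 family work beside BAX and PUMA. Of 11 family genes tested, 4 were lowered and 1 raised (median -0.28), beside 11.7% and 10.3% of all genes. The replicate block gave 6 lowered and 1 raised, beside 26.0% and 23.9%. *Bmf*, a BH3-only gene like *Bbc3*, fell to 52.8% of control (log2 fold change -0.92, standard error 0.11, adjusted p = 0.00142 in limma). The other lowered genes encode protective members. *Bcl2* fell by 0.72 (adjusted p = 0.00923), *Bcl2l2* by 0.46 (adjusted p = 0.00948) and *Bcl2l1* by 0.28 (adjusted p = 0.027). A further protective gene, *Mcl1*, chosen after its values were seen, did not pass with either probe (95% intervals -0.14 to 0.20 and -0.34 to 0.13). With normexp the *Bcl2* estimate was -0.25 and its call was lost (adjusted p = 0.112). The gene raised was *Bad* (0.39, adjusted p = 0.022), whose product promotes death. The call of *Bcl2l1* was lost without any single array but control replicate 2 (adjusted p up to 0.0807), and that of *Bad* without *L3mbtl2*-KD replicate 3 or 4 or control replicate 3 (adjusted p up to 0.0679). Without the filter both calls were lost (0.0752 and 0.0596). Among 5 other genes for inhibitors of cyclin-dependent kinases, *Cdkn1b*, which encodes p27, fell by 0.45 (adjusted p = 0.0122) and the other 4 did not pass. With the replicate block all 5 passed, 3 lowered and 2 raised (26.0% and 23.9% of all genes, against 11.7% and 10.3% with no block).

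Of 10 paralogues tested, 4 were lowered and 1 raised, in limma (11.7% and 10.3% of all genes) and with the replicate block (26.0% and 23.9%), and the 4 lowered genes were past 2-fold in at least 1 probe. Those of the family of *Perp* were *Emp1* (log2 fold change -2.18, standard error 0.32, adjusted p = 0.00314 in limma), *Emp3* (-1.51, adjusted p = 0.00131) and *Pmp22*, whose probes disagreed (-1.95, adjusted p = 0.000398, and -0.49, adjusted p = 0.393). *Phlda1*, a relative of *Phlda3*, gave -1.02 (adjusted p = 0.0164), with an adjusted p of 0.0515 without control replicate 3. *Zmat1*, a relative of *Zmat3*, was 0.92 higher (adjusted p = 0.0191), with an adjusted p of 0.0515 without *L3mbtl2*-KD replicate 3 and 0.0532 in the methods' one-way analysis of variance, and its estimate was 0.45 with normexp (adjusted p = 0.0115). Of 12 tested genes of the ATF4 stress response, which also drives *Sesn2*, 3 were lowered and 0 raised in limma, beside 11.7% and 10.3% of all genes (4 and 0 at an unadjusted p under 0.05, beside 20.5% and 18.2%), and the methods' one-way analysis of variance lowered 1 and raised 0. For that analysis of variance no share of all genes is given. The replicate block gave 6 lowered and 0 raised, beside 26.0% and 23.9%. Those lowered in limma with no block were *Vldlr* (-0.62, adjusted p = 0.00655), *Ddit3* (-0.43, adjusted p = 0.0482) and *Asns* (-0.38, adjusted p = 0.0376). The call of *Ddit3* was lost without any 1 of the 8 arrays (adjusted p up to 0.12) and that of *Asns* in 6 of 8 such settings, all but those without *L3mbtl2*-KD replicate 2 or control replicate 1 (adjusted p up to 0.0986). The analysis of variance gave 0.0777 for *Ddit3* and 0.0514 for *Asns*. Without the filter these were 0.11 and 0.0912, and with quantile normalization *Asns* had 0.0517.

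Genes of other cell types moved with the groups too. Of 16 feeder fibroblast genes, 11 were well above background on all arrays. Of these 11, 8 were lowered and 0 raised in limma, beside 11.7% and 10.3% of all genes (8 and 0 at an unadjusted p under 0.05, beside 20.5% and 18.2%), with a median of -0.88, and the methods' one-way analysis of variance lowered 7 and raised 0. For that analysis of variance no share of all genes is given. *Dcn* and *Col3a1* passed the filter through the control arrays alone and are not counted here. The summed level of all 16, in units of the 75th percentile of the array, was 62.0, 72.3, 71.1 and 68.4 in control replicates 1 to 4 and 34.0, 40.8, 39.1 and 34.2 in *L3mbtl2*-KD replicates 1 to 4. All *L3mbtl2*-KD sums were below all control sums. The most abundant gene of the list, *Fn1* (log2 fold change -0.88, adjusted p = 0.00392), made up 66.2% of the sum in control and 66.7% in *L3mbtl2*-KD samples, so that the sum mostly follows this gene. Of the 6 defining genes, *Col1a1* (-2.22, adjusted p = 0.00619) and *Col1a2* (-2.81, adjusted p = 0.00438) were well above background on all arrays, and *Lum* and *Postn* on none. *Dcn* and *Col3a1* were well above background on the 4 control arrays and on no *L3mbtl2*-KD array, so only bounds can be given, at least 12.11-fold lower for *Dcn* and at least 7.81-fold lower for *Col3a1*, with no test. *Acta2* (-2.72, adjusted p = 0.00302) and *Col6a1* (-1.61, adjusted p = 0.0467) were lower too, the latter passing with 1 array left out only without *L3mbtl2*-KD replicate 2 or control replicate 1 (adjusted p otherwise up to 0.11). *Col6a1* also missed the threshold with normexp (-0.78, adjusted p = 0.0672), with quantile normalization (0.0651), without the filter (0.103) and in the analysis of variance (0.109). Of the 11 genes, *Tagln* (-0.58, adjusted p = 0.173) and *Col5a1* (-0.32, adjusted p = 0.447) did not pass in limma. Nor did *Fbn1*, whose estimate was above 0 (0.16, adjusted p = 0.743). For a bound, each *L3mbtl2*-KD array was given the dimmest signal of any probe it held well above background, or the own signal of the probe where that was higher. Fewer cells of a type and less RNA per cell cannot be told apart in these bulk samples. *Perp*, *Bbc3* and the paralogues *Emp1*, *Emp3* and *Pmp22* were lower in the same samples as the fibroblast genes, and the part of feeder cells in these results was not tested. The methods name sorting of *Vasa*-positive cells for the *L3mbtl2*-KD group and do not state it for the controls, so sorting and group may coincide for these genes.

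The lists of other states are read against the same shares of all genes, 11.7% lowered and 10.3% raised in limma, 20.5% and 18.2% at an unadjusted p under 0.05, and 26.0% and 23.9% with the replicate block. Counts of the methods' one-way analysis of variance have no such share. Of 7 primitive endoderm genes 4 were well above background on all arrays. Of these 4, 2 were lowered and 0 raised in limma (3 and 0 at an unadjusted p under 0.05, and 2 and 0 in the methods' one-way analysis of variance), with a median of -0.74. The other 3 passed the filter through the control arrays alone. Of 5 trophectoderm genes well above background on all arrays 0 passed in limma or the methods' one-way analysis of variance (1 lowered at an unadjusted p under 0.05 in limma), with a median of -0.24, and 1 was lowered with the replicate block. Of 8 tested genes of the two-cell-like state 7 were raised in limma in at least 1 probe (beside 10.3% of all genes) and 5 in the methods' one-way analysis of variance (median 1.94). 1 of the 7 was raised in its dimmer probes alone. All 10 pluripotency genes were well above background on all arrays, and their summed level was 296 to 333 in *L3mbtl2*-KD ESCs and 302 to 324 in control ESCs. *Dppa5a*, the most abundant, made up 51.9% of that sum in *L3mbtl2*-KD and 46.3% in control samples. The median of the list was -0.20, with 7 of 10 estimates below 0 and 3 genes whose *L3mbtl2*-KD arrays were all below the control arrays (13.8% of all genes). The lowest estimate was that of *Nanog* (-1.32, 95% interval -2.43 to -0.20), which did not pass (adjusted p = 0.0962 in limma). The replicate block lowered 3 of the 10 and raised 1. With no block 1 was lowered (beside 11.7% of all genes), *Klf4* (-0.70, adjusted p = 0.0274), a call lost without *L3mbtl2*-KD replicate 3 or 4 or control replicate 3 (adjusted p up to 0.0718), without the filter (0.0673) and in the analysis of variance (0.0641). Housekeeping genes had a median of 0.04, with 1 of 10 raised (beside 10.3% of all genes) and 2 with the replicate block (beside 23.9%).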

How the data were processed

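RNA of 8 samples, 4 *L3mbtl2*-KD and 4 control, was measured on 1 array each. The deposited array files hold spot intensity as Feature Extraction wrote it, with background subtracted on the array and no normalization between arrays. A further deposited table holds log2 values that the authors scaled to the 75th percentile, with the median of every probe set to 0. Here the intensity was put on the log2 scale and the 75th percentile of the array subtracted. These values matched the table of the authors after centring (lowest correlation 0.9999 over 39242 probes, array medians from -0.059 to 0.079). Control spots and outlying spots were left out, and spots of the same probe were combined, which left 39429 probes, of which 26055 had a RefSeq accession that maps to a gene (19751 genes).

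A probe was tested when all arrays of either group had it well above background (23518 probes, 13652 genes, with 78 of these probes lacking a value on some array), with limma 3.58.1 in R 4.3.3 (lmFit and eBayes, *L3mbtl2*-KD against control), and p values were adjusted by Benjamini-Hochberg across the 23518 probes. Genes counted as called with 1 or more probes at an adjusted p under 0.05. For estimates the tested probe with the highest mean signal stood for the gene. Every adjusted p is from limma unless the methods' one-way analysis of variance is named. Two-sided exact permutation tests were run over the 8 arrays. Python 3.11.15, pandas 2.3.3, numpy 2.4.6 and matplotlib 3.10.9 made the tables and plots, and the fit was tested on simulated data.

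The members and the lists, on which the tests and the rule for naming genes run, were chosen with earlier results of these data known. The tests, the alternatives and that rule were written down before the values were fitted here. The rule names all members, *L3mbtl2*, *Ddx4*, *Trp53* and *Mdm4*, the genes of each list past the threshold (at most 6 in a list, those with the largest change), and the most abundant gene and defining markers of cell type lists. The primitive endoderm, two-cell-like and housekeeping lists are given by counts and medians. *Tagln*, *Col5a1*, *Fbn1* and *Nanog* are named outside the rule, after their values were seen. The alternatives were quantile normalization, normexp background correction (offset 50), the log2 table of the authors, no filter, a filter on all 8 arrays, an intensity trend, a block for the slide, a replicate block, the methods' one-way analysis of variance, 1 probe per gene, each slide alone, each array left out, and a 1.5-fold threshold. Normexp was planned on the mean spot signal, which the files lack, and used the median spot signal. The labels do not state a pairing of replicates. It was inferred from the values: deviations from the group mean correlated at 0.38 to 0.58 between arrays of the same number and at -0.44 to 0.25 between others (23440 probes).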

Additional observations from a re-analysis of the deposited data

Results flagged for a closer look

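A sample stood far from the other 3 of its group in 3 of 80 groups of values examined; chance gives such a sample in about 1 in 20 groups. *Trp53inp1* was at 2.19 in *L3mbtl2*-KD replicate 3, the highest of its group, with the others from 2.06 to 2.08. *Bmf* was at 0.45 in control replicate 4, the lowest of its group, with the others at 0.71. *Phlda1* was at -0.21 in control replicate 1, the lowest of its group, with the others from 0.56 to 0.65.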

How the results depend on the processing

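Under the alternatives tried, 0 members were raised in any of them, and more than 2-fold changes numbered 0 except with the 1.5-fold threshold, which gave 2 (*Bbc3* and *Perp*). The count of members lowered, 2, was 1 without the filter and in the methods' one-way analysis of variance (*Perp* in both), and 0 on slide 1 alone and 0 on slide 2 alone. With 1 array left out it was 1 to 3, being 1 (*Perp*) in all but the setting without control replicate 1, where it was 3 (*Bbc3*, *Perp* and *Trp53inp1*). Shares of all genes are given only for limma with no block and with the replicate block. Counts under the other alternatives have none beside them. On single slides fewer samples were fitted. For the other changes the cause was not tested.

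*Bbc3* missed the threshold without the filter (-0.64, adjusted p = 0.082), in the one-way analysis (-0.64, adjusted p = 0.0755), on slide 1 (-0.61, adjusted p = 0.389) and on slide 2 (-0.67, adjusted p = 0.0503). With 1 array left out it lay between -0.80 and -0.55. *Perp* missed it on slide 1 (-0.88, adjusted p = 0.29) and slide 2 (-0.92, adjusted p = 0.0695) and passed in the other 17 alternatives. *Trp53inp1* lay between -0.31 and -0.16 with 1 array left out and passed without control replicate 1. With the replicate block, 5 members were lowered: *Mdm2* (-0.26), *Phlda3* (-0.37) and *Sesn2* (-0.27) passed beside *Bbc3* and *Perp*. The replicate block changed no other call among the members. *Cdkn1a* turned sign with 1 array left out (-0.37 to 0.12). *Zmat3* turned with quantile normalization (-0.013), on slide 2 (-0.030) and with 1 array left out (-0.067 to 0.081). *Trp53* turned on slide 1 (-0.085) and with 1 array left out (-0.050 to 0.19). None of these 3 genes passed the threshold under any alternative. *Bax* and *Ccng1* kept sign and call throughout.

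Of the other p53 targets, 1 was lowered, against 2 without the filter, 15 with the replicate block, 3 with the slide as a block, 0 on slide 1 and 1 to 3 with 1 array left out (3 without control replicate 1). The replicate block lowered 26.0% and raised 23.9% of all genes. For the other alternatives no share of all genes is given, so their counts here describe the setting as well as the targets. 1 was raised, against 3 with the intensity trend, 3 with normexp, 2 with quantile normalization, 2 in the one-way analysis, 8 with the replicate block, 5 with the slide as a block, 0 without the filter, 0 on slide 1, 2 on slide 2 and 0 to 1 with 1 array left out. It was 0 without *L3mbtl2*-KD replicate 2, 3 or 4 or control replicate 3 or 4.

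With 4 arrays per group, the 95% intervals of 7 members, in the fit with no block, included 0. Probes near background, such as those of *Fas* and *Dram1*, give no usable difference.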
